A study of Homo sapiens with 13 samples.

Results

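The proteasome is the protease complex that degrades ubiquitin-tagged proteins in every human cell. Its 20S core is a barrel of α and β rings, with the catalytic sites inside the β rings, and its 19S regulatory particle has a base of ATPases that unfold substrates and a lid that removes ubiquitin. Other activators, PA28 and PA200, and the inhibitor PI31 bind the same core, and in immune signalling 3 catalytic β subunits are exchanged for those of the immunoproteasome. The genes described here are all genes whose symbol is PSMA, PSMB, PSMC, PSMD, PSME or PSMF followed by a number. In all, 42 such genes held reads, of 14575 genes with reads. Of 44 family symbols looked for, PSMA8 and PSMB8, the testis-specific α subunit and an immunoproteasome subunit, had no reads listed.

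The 3’ READS method sequences the junction between an mRNA and its poly(A) tail, so that 1 read marks 1 mRNA 3’ end. Isoforms here are mRNAs of a gene that end at different nucleotides. Poly(A) RNA came from HEK293 Flp-in T-REx cells, a human embryonic kidney line, carrying a pcDNA5 plasmid for α-amanitin resistant Rpb1, the largest subunit of RNA polymerase II (Pol II). The library titles of both groups name an Avitag, a protein tag, on Rpb1. The plasmid encoded either wild-type Rpb1 (5 libraries) or Rpb1 with the R749H substitution (4 libraries), which slows Pol II elongation. Per the labels, cells of both groups received doxycycline at 2 µg/ml for 24 hr to induce Rpb1 and then α-amanitin at 2.5 µg/ml for 42 hr, which blocks the cells' own Pol II. The study's methods give a shorter induction. Each Rpb1 form is represented by a single derived line, so the substitution and any other difference between the lines cannot be told apart. The study's methods call the replicates biological, but the labels do not say that they were separate cultures. If they were not, p-values measure the spread between libraries, which may be technical.

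Levels are given as normalised RPM, that is, reads scaled to a common library size with TMM factors. The libraries held 2479851 to 10135014 reads within 5 kb downstream of a stop codon. R749H replicate 3 stood apart: isoforms with only 1 read made up 6.60% of its isoforms and 30.1 to 36.2% of those of the other 8 libraries. POLR2A, which encodes Rpb1, had 60.3 to 125 normalised RPM in wild-type cells and 253 to 520 in R749H cells. Reads at 3’ ends cannot see the substitution, and the labels do not give the 3’ end of the plasmid's transcript, so this does not check the labels. Of the HEK293 markers, VIM, INA, KRT8 and KRT18 were present in every library, PAX2, LHX1 and NEFM were low and NEFL had no reads listed. VIM was lower in R749H cells, by 0.66 on the log2 scale (SE 0.19, adjusted p = 0.0172, limma with Benjamini-Hochberg adjustment over all genes tested, as for all adjusted p below). KRT8 (0.44, SE 0.20, adjusted p = 0.105) and KRT18 (0.38, SE 0.21, adjusted p = 0.195) had values above 0. INA had a value below 0 (-0.33, SE 0.23, adjusted p = 0.31). PAX2, too low to test, had 1.28 to 4.08 normalised RPM in wild-type and 0 to 0.870 in R749H libraries, with no overlap. In bulk RNA, fewer cells with a transcript and less of it per cell cannot be told apart. The 10 markers of blood, liver, connective tissue and endothelium summed to between 0 and 1.57 normalised RPM in wild-type and between 1.38 and 5.06 in R749H libraries, and 5 of them had no reads listed.

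The 3’ ends of the proteasome mRNAs were close to the stop codon and carried a canonical poly(A) signal. The main isoform of a gene is its 3’ end with the most reads over all 9 libraries. Among the 38 proteasome genes with enough reads to test, the main isoform ended a median of 133.5 nt after the stop codon, against 716 nt over all 9493 genes examined, and 25 of 38 ended within 200 nt. Only PSMD1, PSMD11, PSME3 and PSME4 ended beyond 1000 nt. The hexamer AATAAA stood within 40 nt upstream of 31 of the 38 main ends (81.6%), against 67.3% of all genes, and 5 more (13.2%, against 16.7%) had ATTAAA without it. The search covered only the strand with the sense of the mRNA. All 38 main ends lay in an annotated UTR of their gene, and 30 were within 5 nt of an annotated transcript end. Only ends within 5 kb after a stop codon were listed, which favours such places, and these shares were not computed over all genes. These are descriptions, with no test.

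The last 30 nt before the cleavage position are shown for the main ends of genes described below. They were read from the GRCh37 assembly in the sense of the mRNA, with the hexamer AATAAA or ATTAAA in capitals. They show the usual spacing of signal and end, and the exceptions.
PSMD8 (chr19:38874085-38874114, plus strand, 84 nt after the stop codon): cagggtttcgcccAATAAAggtggactgac
PSMC3 (chr11:47440326-47440355, minus strand, 60 nt): gaagtgcgcAATAAAagatggtttagggtc
PSMC4 (chr19:40487318-40487347, plus strand, 135 nt): tttcttcAATAAAtagataagatcgaatcc
PSMD3 (chr17:38154179-38154208, plus strand, 374 nt): atgatttttaaacAATAAAaagttctccac
PSMD7 (chr16:74340155-74340184, plus strand, 553 nt): tcaaagatacaATTAAAtggcttgattttt
PSMD12 (chr17:65336901-65336930, minus strand, 58 nt): aattggaagtcATTAAAaaaagactgttat
PSME2 (chr14:24612575-24612604, minus strand, 43 nt): aggaaAATAAAtgatctatatgttgtgtgg
PSMB5 (chr14:23495067-23495096, minus strand, 231 nt): tggatgttaacattacactactcactactc
PSMF1 (chr20:1146091-1146120, plus strand, 396 nt): aatgtcaatacagaattcatgttgccggtt
PSMB5, the chymotrypsin-like catalytic subunit, and PSMF1, the inhibitor PI31, were the genes with neither hexamer in the 40 nt searched. The 30 nt shown for PSME2 occur at 2 places in the genome, so its reads may be shared with a copy.

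Levels differed widely among subunits that the particle holds in equal numbers. PSMD8, a lid subunit, was the most abundant proteasome mRNA and ranked 18 of 14575 genes. It took 0.709 to 1.001% of all reads in a library, more than the 0.508 to 0.629% of the other proteasome genes together. The next were the ATPase genes PSMC3, PSMC5 and PSMC4, at ranks 154, 165 and 199. At the other end, PSMC6, also an ATPase gene, had means of 2.75 and 2.34 normalised RPM in wild-type and R749H cells, and PSMC1 had 1.69 and 1.65. PSMC1, the chaperone genes PSMD5 and PSMD10, and the thymus-specific PSMB11 (1 read in all) did not pass the filter on low counts, which left 38 genes. Levels are per mRNA end, so length does not enter them, but reads whose terminal As could be genomic were discarded by the authors, which can differ between genes.

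**Figure D1:**
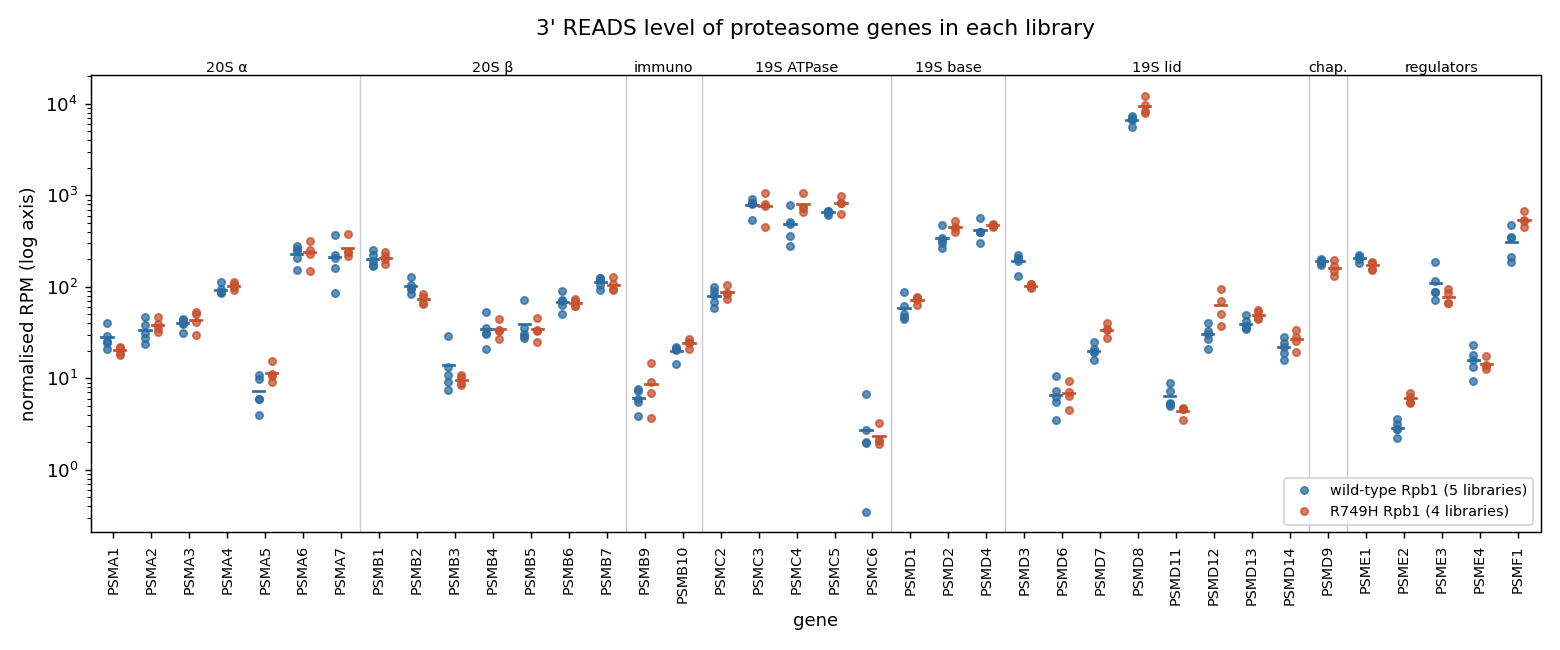
Normalised RPM (log axis) of the 38 proteasome genes that passed the filter on low counts, with 1 point per library (wild-type left, R749H right) and a bar at each group mean, ordered by subgroup (α, β, immunoproteasome, ATPases, other base subunits, lid, assembly chaperone, regulators). PSMD8 stands above all others at 5612 to 12330, and for most genes the points of the lines overlap.

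The question for expression was whether cells with slow Pol II held other amounts of these mRNAs. In R749H cells PSMC4, PSMD7, PSMD12, PSME2 and PSMF1 were higher and PSMD3 was lower, and the other 32 genes tested did not pass an adjusted p of 0.05. The ratio of group means was 1.64 to 2.08 for the 5 genes that rose and 0.543 for PSMD3. Of all 9494 genes tested, 11.3% were called higher and 13.8% lower, together 25.1%, so 6 of 38 is no larger a share than that of all genes. At an unadjusted p under 0.05 there were 10 of 38, against 37.8% of all genes. The median log2 fold change of the 38 was 0.14, against -0.06 over all genes. The libraries of the lines did not overlap in 5 of 38 genes (13.2%), against 19.9% of all genes. Under the authors' scaling alone, without TMM factors, the median of all genes was -0.39, the calls over all genes changed from 1071 higher and 1309 lower to 447 and 2735, and those among proteasome genes from 5 and 1 to 1 and 7. PSMD12 and PSMD3 kept their calls there, while PSMC4, PSMD7, PSME2 and PSMF1 lost theirs (adjusted p = 0.121, 0.154, 0.103 and 0.0595).

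In the α ring, none of the 7 genes tested was called by limma, edgeR or DESeq2, and 1 had an unadjusted p under 0.05. Their log2 fold changes ran from -0.44 (SE 0.22) for PSMA1 to 0.68 (SE 0.30) for PSMA5, with adjusted p of 0.143 and 0.0992. PSMA7, the α subunit with the most reads, had 85.9 to 369 in wild-type and 216 to 379 normalised RPM in R749H libraries, which overlapped (log2 fold change 0.47, SE 0.29, adjusted p = 0.257). Without wild-type replicate 5 it passed (adjusted p = 0.0485). In the β ring limma and edgeR called none of 7 and DESeq2 called 1, PSMB2, which was also the 1 gene with an unadjusted p under 0.05. PSMB2, a non-catalytic β subunit, had 83.3 to 127 in wild-type and 65.5 to 83.5 in R749H libraries (-0.46, SE 0.18, adjusted p = 0.0612), and it passed without wild-type replicate 3 (adjusted p = 0.0497). PSMB1, the β subunit with the most reads, had 202 ± 35.8 (SD, n = 5) and 209 ± 26.3 (SD, n = 4). Among the catalytic subunits, PSMB5 had 27.4 to 72.1 and 25.2 to 45.5 (-0.11, SE 0.26, adjusted p = 0.792).

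Of the immunoproteasome subunits, PSMB9 had 3.83 to 7.72 normalised RPM in wild-type and 3.73 to 14.8 in R749H libraries, and PSMB10 had 14.3 to 21.9 and 20.8 to 27.0. Both overlapped between the lines and missed the threshold (adjusted p = 0.468 and 0.293).

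Among the ATPases that unfold substrates, PSMC4 was higher in R749H cells. Its normalised RPM were 282, 487, 357, 514 and 790 in wild-type replicates 1 to 5 and 650, 756, 730 and 1053 in R749H replicates 1 to 4. Wild-type replicate 5 lay within the R749H range and the other 4 lay below it. The log2 fold change was 0.78 (SE 0.24, adjusted p = 0.0235). The call was lost without wild-type replicate 3 or R749H replicate 4, with adjusted p up to 0.0841, and without a filter on low counts. PSMC3, the ATPase gene with the most reads, had 780 ± 143 (SD, n = 5) and 770 ± 247 (SD, n = 4). In the rest of the base, limma, edgeR and DESeq2 called none of 3 and 1 had an unadjusted p under 0.05: the scaffold gene PSMD2 had 269 to 471 and 398 to 529 (0.43, SE 0.18, adjusted p = 0.0828), and the ubiquitin receptor gene PSMD4 298 to 572 and 450 to 484 (0.20, SE 0.18). PSMD2 passed without wild-type replicate 1 (adjusted p = 0.0128), and PSMD1 without wild-type replicate 5.

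In the lid 2 of 8 genes rose and 1 fell, against 25.1% of all genes called. PSMD12, a scaffold subunit of the lid, had 21.1, 33.0, 26.8, 30.8 and 40.4 normalised RPM in wild-type replicates 1 to 5 and 37.4, 69.6, 50.3 and 95.1 in R749H replicates 1 to 4. The ranges touched only between wild-type replicate 5 and R749H replicate 1. The log2 fold change was 0.99 (SE 0.25, adjusted p = 0.00836). PSMD7, the partner of the deubiquitinase PSMD14, had 24.9, 19.4, 16.0, 20.9 and 19.4 in wild-type and 27.7, 33.7, 34.6 and 40.4 in R749H replicates, and every R749H library was above every wild-type library (0.75, SE 0.20, adjusted p = 0.0121).

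PSMD3, another lid scaffold, was lower in R749H cells. It had 130, 190, 202, 206 and 222 normalised RPM in wild-type and 109, 107, 99.6 and 97.4 in R749H replicates, with no overlap. The log2 fold change was -0.86 (SE 0.18, adjusted p = 0.00197). PSMD8 had 5612, 7474, 6807, 6745 and 6994 in wild-type and 8272, 9783, 7960 and 12330 in R749H replicates, again with no overlap, but its change of 0.49 (SE 0.18) just missed the threshold (adjusted p = 0.0556). It passed with edgeR's quasi-likelihood test, with DESeq2, with the libraries thinned to the smallest and without R749H replicate 3. The base chaperone gene PSMD9 had 189 ± 11.4 (SD, n = 5) and 161 ± 28.6 (SD, n = 4), with an adjusted p of 0.284.

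Of the regulators, 2 of 5 rose, against 11.3% of all genes. PSME2, the β subunit of PA28, had 2.23, 3.13, 2.77, 3.55 and 2.80 normalised RPM in wild-type and 5.57, 6.30, 5.33 and 6.92 in R749H replicates. The ranges did not overlap, but each value rested on only 7 to 39 reads. Its log2 fold change was 0.97 (SE 0.30, adjusted p = 0.0221), and the call was lost without R749H replicate 2 or 4 (adjusted p up to 0.0597), without a filter on low counts and with thinned libraries. PSME1, its partner in the PA28 ring, had 182 to 222 and 154 to 189, so the subunits of the same ring differed in level by far more than either differed between the lines (PSME1: -0.27, SE 0.16, adjusted p = 0.216). Since the sequence before the main end of PSME2 has a copy elsewhere in the genome, its level is less certain. PSMF1 had 210, 342, 188, 349 and 473 in wild-type and 537, 519, 452 and 669 in R749H replicates. Wild-type replicate 5 reached into the R749H range. Its log2 fold change was 0.87 (SE 0.23, adjusted p = 0.0112). PSME3, which forms the nuclear PA28γ ring, had 71.6 to 187 and 66.3 to 94.4 (-0.44, SE 0.24, adjusted p = 0.184), and PSME4, which encodes PA200, 9.44 to 23.0 and 12.7 to 17.5 (-0.09, SE 0.25).

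Some of these genes lie in chromosomal regions whose genes leaned one way between the lines. The median log2 fold change of the 605 other genes tested on chromosome 17 was -0.43, and that of the 258 on chromosome 20 was 0.52. For PSMD3 on chromosome 17 the other tested genes within 5 Mb had a median of -0.51, and for PSMF1 on chromosome 20 it was 0.41, each in the direction of the gene itself. The part of these regions in the calls of PSMD3 and PSMF1 was not tested. For the other called genes the neighbours had medians of -0.09 (PSMC4), 0.23 (PSMD7), -0.16 (PSMD12) and -0.12 (PSME2). PSMD12 thus lay 1.15 above its neighbours on the chromosome whose genes were mostly lower. PSMB2 and PSMD8, which DESeq2 called and limma did not, changed by -0.46 and 0.49, beside neighbour medians of -0.48 and -0.11. The 7 proteasome genes tested on chromosome 17 had a median of -0.37. Over all 38 genes, 30 lay above the median of their neighbours, and the median difference was 0.16. The same count was not made for genes outside the family, so it cannot be called particular to it.

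**Figure D2:**
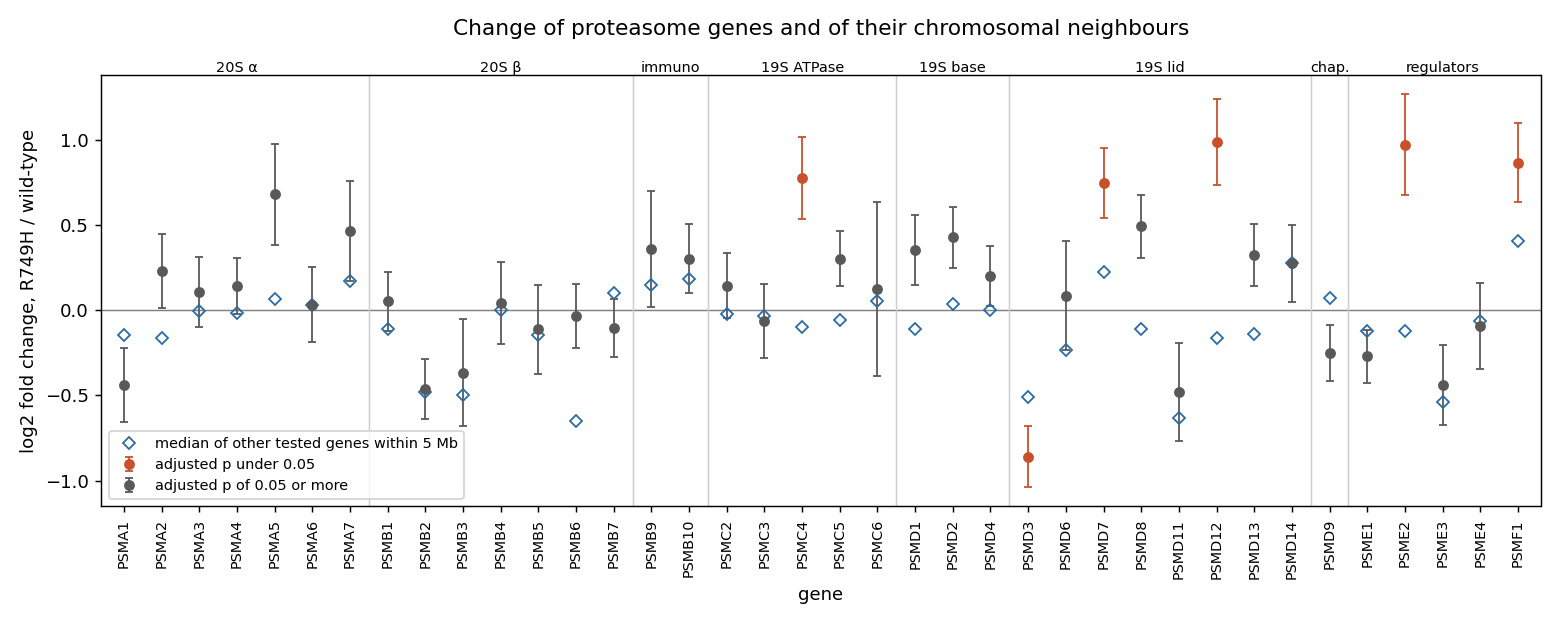
Log2 fold change (R749H over wild-type) of the 38 proteasome genes tested, with bars of 1 SE, beside the median log2 fold change of the other genes tested within 5 Mb (open diamonds). Of the 6 genes with an adjusted p under 0.05 (orange), PSMC4, PSMD12 and PSME2 lie above 0 with neighbours below it, and the neighbours of PSMD3, PSMD7 and PSMF1 lean the same way as the gene.

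The genes around the proteasome were read from lists as well, and they were not compared with their chromosomal neighbours. Of 15 tested genes for assembly and for proteins bound to the proteasome, 3 rose and 1 fell, a share near the 25.1% of all genes called. The ubiquitin receptor gene ADRM1 rose by a log2 fold change of 0.64 (SE 0.17, adjusted p = 0.0129), and POMP, which matures the β ring, rose by 0.50 (SE 0.16, adjusted p = 0.0272). PSMC3IP rose by 0.76 (SE 0.22), and despite its symbol it is known for meiotic recombination. KIAA0368, the scaffold ECM29, fell by 1.31 on the log2 scale (SE 0.34, adjusted p = 0.0103). Of 13 tested genes for ubiquitin, shuttle factors and p97, 2 rose, against 11.3% of all genes: the E1 enzyme gene UBA1 (0.72, SE 0.22) and RPS27A (0.53, SE 0.18), which encodes a ubiquitin fused to a ribosomal protein.

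The transcription factor NRF1, encoded by NFE2L1, pairs with small MAF proteins and drives proteasome genes when the proteasome is impaired. Of the 8 tested genes of its list 4 rose and 1 fell, against 11.3% and 13.8% of all genes. NFE2L1 fell by 0.95 on the log2 scale (SE 0.28, adjusted p = 0.0175). Its levels, 29.6 to 100 normalised RPM in wild-type and 19.2 to 31.4 in R749H libraries, overlapped. MAFF had 0.319 to 1.96 normalised RPM in wild-type and 7.13 to 40.4 in R749H libraries, with no overlap (4.02, SE 0.45, adjusted p = 1.08e-05). MAFG (1.65, SE 0.34), MAFK (1.19, SE 0.28) and the autophagy receptor gene SQSTM1 (1.24, SE 0.23) also rose. Of the 7 tested genes for antigen processing and the interferon response, B2M (0.88, SE 0.19) and TAP1 (0.66, SE 0.22) rose, 2 of 7 against 11.3% of all genes, and none fell.

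The second question was whether slow Pol II moved the 3’ ends. For each gene the share of reads downstream of its pooled median 3’ end was compared between the lines. Limma called 0 of the 33 proteasome genes tested and 7 of all 6068 genes tested (0.115%). At an unadjusted p under 0.05 there were 4 of 33, PSMF1, PSMD1, PSMD12 and PSME4, against 10.4% of all genes, and by edgeR and by DESeq2 the adjusted count for the 33 was also 0. The share was lower in R749H cells in 22 of 33, with a median change of log2 odds of -0.16, against -0.10 over all genes. The change was above 0 in 33.3% of the 33, against 40.6% of all genes. The lines did not overlap in 2 of 33, PSMB10 and PSMF1, against 4.52% of all genes.

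PSMF1 had the smallest p. Its downstream share was 25.7, 26.3, 30.1, 24.6 and 25.4% in wild-type and 21.7, 20.8, 20.4 and 20.7% in R749H replicates. Every R749H library lay below every wild-type library (log2 odds -0.44, SE 0.10, adjusted p = 0.115). The gene's 4 major isoforms end within 6 nt of each other, at positions 1146119, 1146120, 1146121 and 1146124 of chromosome 20, 395 to 400 nt after the stop codon. The last of them took 11.1, 13.1, 13.5, 12.1 and 14.3% of the reads in wild-type and 9.04, 6.97, 10.6 and 8.45% in R749H replicates, again with no overlap (log2 odds -0.62, SE 0.14, adjusted p = 0.166). It passed the threshold only without R749H replicate 3 (adjusted p = 0.0447). The main isoform leaned the other way, from 60.3% ± 2.33 (SD, n = 5) to 65.7% ± 1.71 (SD, n = 4), with an adjusted p of 0.276. Within the cluster, limma gave an adjusted p of 0.588 and DESeq2 0.0128. Their sequences differ only in how far they reach:
PSMF1 main end (chr20:1146091-1146120, plus strand): aatgtcaatacagaattcatgttgccggtt
PSMF1 last end (chr20:1146095-1146124, plus strand): tcaatacagaattcatgttgccggtttccc

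PSMD1, the largest scaffold of the base, leaned downstream. It was named after its values were seen. Its 3’ end 2049 nt after the stop codon took 6.25, 6.02, 6.69, 8.21 and 5.77% of the reads in wild-type and 11.7, 10.3, 12.2 and 10.7% in R749H replicates. Its main end, 2 nt upstream, took 57.5, 49.2, 49.3, 52.8 and 50.3% and 42.2, 43.8, 44.2 and 45.1%. Neither end overlapped between the lines, and each had an adjusted p of 0.337 (log2 odds 0.84, SE 0.25, and -0.46, SE 0.13). The AATAAA of the main end begins 29 nt before it and so falls outside the 30 nt shown for the later end:
PSMD1 main end (chr2:232037444-232037473, plus strand): aAATAAAtataagatctccagatggacaag
PSMD1 last end of the cluster (chr2:232037446-232037475, plus strand): ataaatataagatctccagatggacaagac

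Over single isoforms, 0 of 110 tested in proteasome genes changed by limma, and 5 of 16061 over all genes did (0.0311%). At an unadjusted p under 0.05 there were 6 of 110, against 8.47%, and edgeR's adjusted count was also 0. The lines did not overlap in 6 isoforms (5.45%), against 3.47% of all. These were the 3 described for PSMF1 and PSMD1, 2 ends of PSMC4 and 1 of PSMD3. The PSMD3 end 377 nt after the stop codon showed the greatest rise in odds of the 110 (1.01, SE 0.30, adjusted p = 0.363), from 2.43% ± 0.680 (SD, n = 5) to 4.67% ± 0.909 (SD, n = 4). The greatest fall in fitted odds was that of the PSMA2 end at position 42956464 of chromosome 7 (-1.45, SE 0.91, adjusted p = 0.665). It rested on R749H replicate 3, with a share of 0%. The other 3 R749H libraries, at 6.34 to 6.45%, lay within the wild-type range of 3.81 to 16.1%. Of 10 clusters of at least 4 ends no more than 4 nt apart, limma called 0, as it called 0% of all 950 clusters, with 2 of 10 and 4.63% of all at an unadjusted p under 0.05. DESeq2 called 1 of the 950, that of PSMF1, and edgeR called 0. The lines did not overlap in 3 of 10 clusters, those of PSMB10, PSMD1 and PSMF1, against 1.89% of all. The PSMB10 cluster held all reads of its gene, so it repeats the result for the gene. Its downstream share was 23.17 to 25.25% in wild-type and 12.84 to 23.08% in R749H libraries, so the ranges nearly met (log2 odds -0.65, SE 0.31, adjusted p = 0.849).

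**Figure D3:**
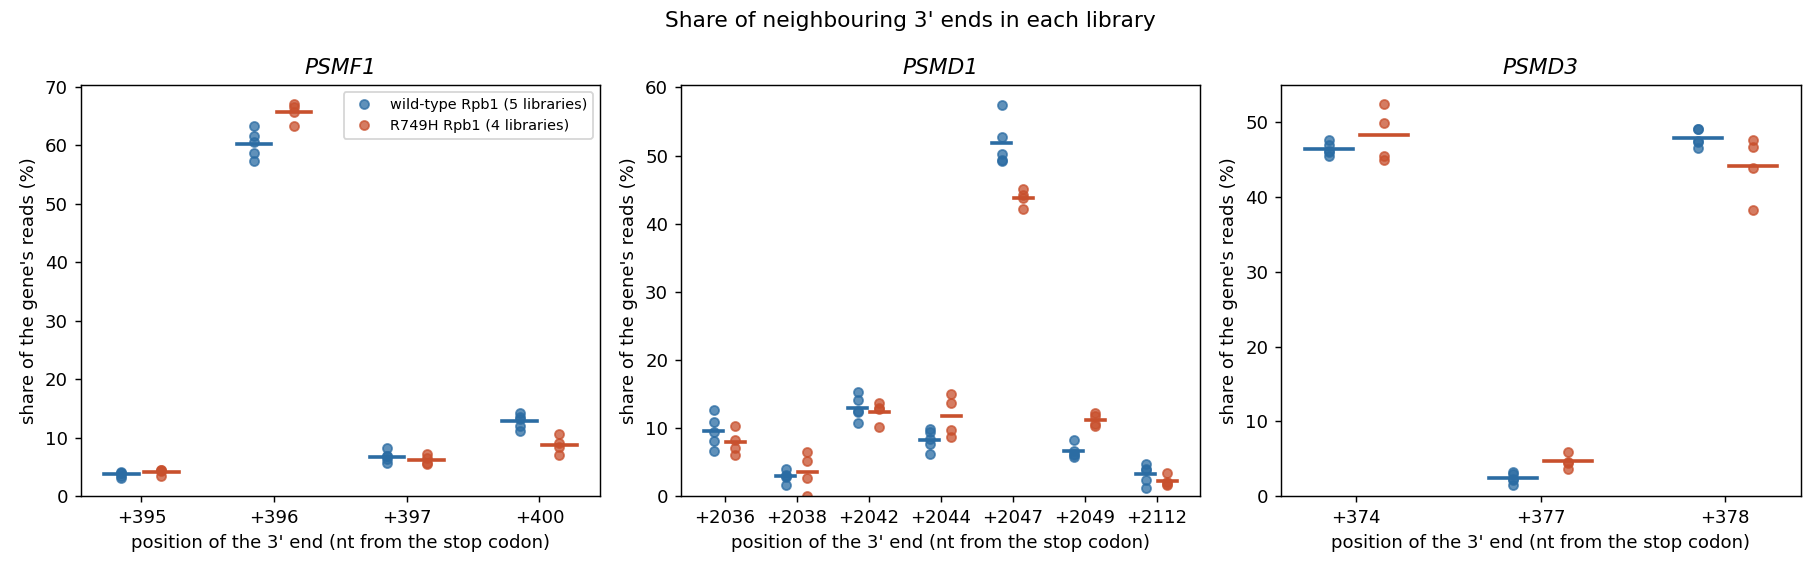
Share of a gene's reads (%) at major isoforms of PSMF1, PSMD1 and PSMD3 with at least 3% of the gene's reads, by position in nt from the stop codon, with 1 point per library and a bar at each group mean. The lines separate at +400 of PSMF1, at +2047 and +2049 of PSMD1 and at +377 of PSMD3, and no difference passed an adjusted p of 0.05 with limma.

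Some proteasome genes end at well separated sites. PSMB2 had 6 major isoforms, spread from 123 to 3723 nt after the stop codon. Of the ends shown, that at 128 nt had AATAAA and that at 1682 nt ATTAAA. The end at 3723 nt had neither hexamer in the 40 nt searched:
PSMB2 at 128 nt (chr1:36068740-36068769, minus strand): tcagAATAAAggtgactatggatataattg
PSMB2 at 1682 nt (chr1:36067186-36067215, minus strand): acgttcatATTAAAgtattgggttaacatt
PSMB2 at 3723 nt (chr1:36065145-36065174, minus strand): tttacacctcataaagcctgtgttccaact
The first of these took 33.1% ± 4.60 (SD, n = 5) of the reads in wild-type and 35.3% ± 6.75 (SD, n = 4) in R749H cells. The farthest took 9.23% ± 1.54 (SD, n = 5) and 6.25% ± 3.15 (SD, n = 4), which overlapped (log2 odds -0.80, SE 0.42, adjusted p = 0.622). For PSME4 the share downstream of its median end was 44.9 to 63.9% in wild-type and 34.6 to 48.4% in R749H libraries (-0.73, SE 0.30, adjusted p = 0.426), from only 52 to 147 reads a library. For PSMD12 it was 26.0 to 45.5% and 20.9 to 31.6% (-0.72, SE 0.27, adjusted p = 0.367), which overlapped. PSMD11, named after its values were seen, had only 17 to 57 reads a library. Its end at 1745 nt took 29.17 to 45.24% in wild-type and 5.882 to 20% in R749H libraries. Its farthest major end, at 2687 nt, took 6.061 to 14.04% and 15 to 50%. Neither end overlapped between the lines, but both had too few reads for the isoform test. The gene's downstream share did overlap (-0.26, SE 0.45, adjusted p = 0.861).

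**Figure D4:**
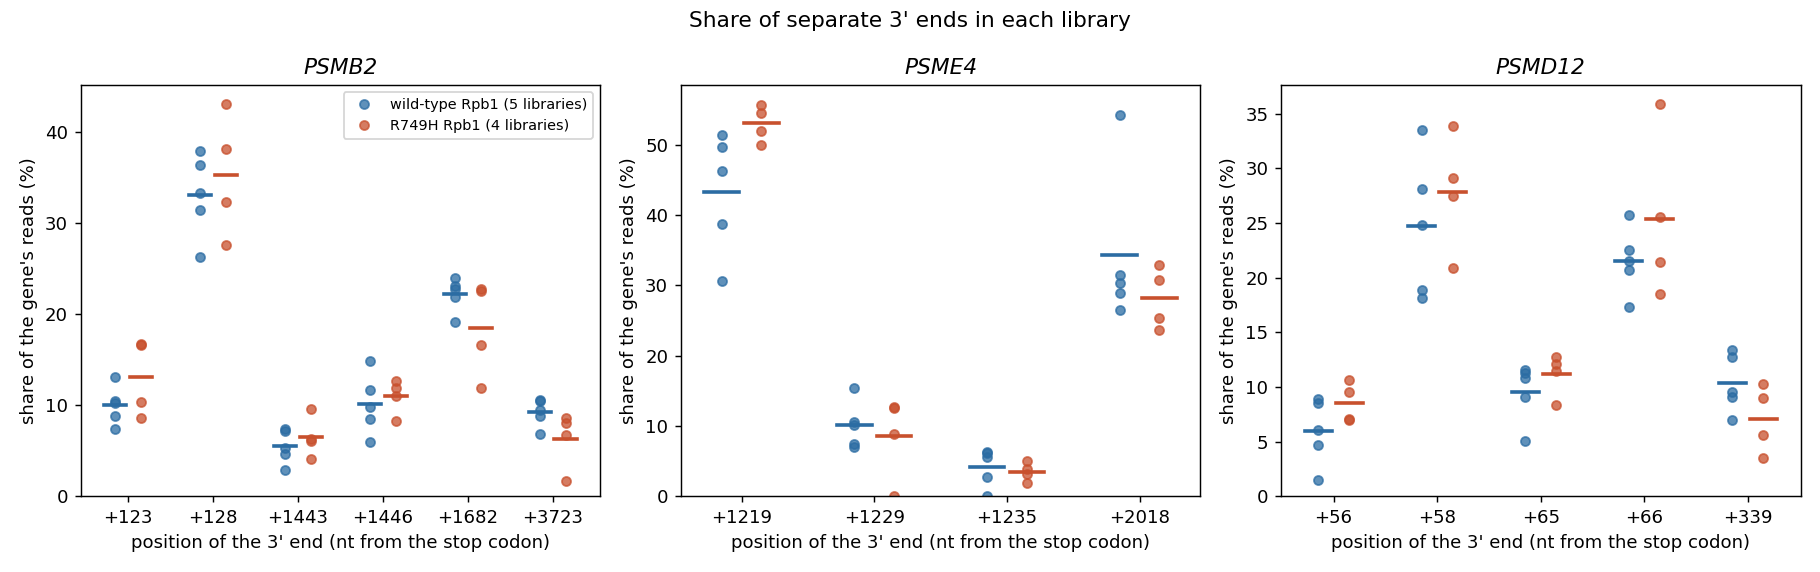
Share of a gene's reads (%) at major isoforms of PSMB2, PSME4 and PSMD12 with at least 3% of the gene's reads, by position in nt from the stop codon, with 1 point per library and a bar at each group mean. The libraries of the lines overlap at all the ends shown.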

How the data were processed

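The authors removed the random bases and leading Ts of each read, mapped the reads to hg19 with bowtie and no mismatch in the first 30 nt (the submitters' processing notes list Bowtie2 2.3.2), discarded reads without non-templated As, and assigned each 3’ end to the closest CCDS stop within the 5 kb before it. The signal values deposited by the authors are reads per 3’ end, scaled to 7 M poly(A) reads per library (25 M for pooled replicates). Dividing by the value of 1 read recovered whole reads at 99.95 to 100% of values (within 0.02 units).

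Reads were summed per gene symbol. Expression was tested with limma 3.58.1 (trend) on log2 RPM, with TMM factors of 0.811 to 1.26, a prior count of 2 and edgeR 4.0.16's filter on low counts. Shares were tested with limma on log2 odds, with 0.5 reads added. Genes needed a mean of 20 reads per library and 5 on each side of the median end, clusters the same, and isoforms 10 reads in the isoform and in the rest of the gene. Major isoforms exceeded 5% of the gene's highest isoform in both pooled lines, or had 5 reads or more in genes whose highest isoform was under 100 reads. P-values were adjusted by Benjamini-Hochberg at 0.05. The edgeR quasi-likelihood test and DESeq2 1.42.0 were alternatives, and the scripts were tested on simulated data. Figures were drawn with matplotlib 3.10.9.

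The members and gene lists were chosen with earlier results of these data known. Named were genes past the threshold in any test, and in each subgroup the gene with the most reads and the largest change each way. PSMB5 alone of the catalytic core genes, the immunoproteasome and regulator genes, and the isoforms with the largest change of share each way were also named. Same-numbered libraries did not deviate together, so replicate numbers were not used to pair them. The 4 NET-seq libraries were not analysed here.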

Additional observations from a re-analysis of the deposited data

Results flagged for a closer look

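In 13 of 142 groups of libraries (each gene's level or downstream share in each line), 1 library lay far from the rest by Dixon's test at 95%, where chance flags about 1 in 20 (7.1 groups). For levels in normalised RPM, PSMA7 was at 379 in R749H replicate 3 (others 216 to 240), PSMC6 at 3.23 in R749H replicate 4 (1.92 to 2.13) and PSMD11 at 3.48 in R749H replicate 1 (4.61 to 4.79). In wild-type cells PSMB3 was at 29.4 (7.51 to 13.3) and PSMB5 at 72.1 (27.4 to 35.9) in replicate 1, and PSMB10 at 14.3 (20.4 to 21.9) and PSMC3 at 534 (797 to 904) in replicate 5.

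For shares of reads downstream of the median 3’ end, R749H replicate 3, the library that lists few single-read isoforms, stood out in 4 genes. It had 50.9% for PSMA3 (others 35.1 to 36.0%), 54.8% for PSMD13 (47.2 to 48.5%), 35.1% for PSMD4 (25.9 to 27.2%) and 0% for PSMD6 (38.5 to 42.3%), the last from 24 reads. Wild-type replicate 1, the shallowest library, had 44.9% for PSMD14 (20.5 to 23.1%) and 13.3% for PSME3 (19.9 to 21.3%).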

How the results depend on the processing

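Among proteasome genes, limma with RLE size factors, with a prior count of 0.1, edgeR and DESeq2 each called all 6 genes that limma called in the report. DESeq2 called 8 of 38 in all. Over all genes these alternatives called 22.7 to 27.9%. Leaving out each library in turn gave 4 to 8 calls of 38, against 16.7 to 28.6% of all genes. PSMD3, PSMD7, PSMD12 and PSMF1 were among these calls in 9 of 9. The authors' scaling alone called 8 of 38, of which 2 were shared with the report, against 33.5% of all genes. It lowered the share of genes with a log2 fold change above 0. That share went from 65.8 to 28.9% among the 38 and from 46 to 26.6% over all genes. Among the 22 named genes the authors' scaling turned PSMB1 (-0.29), PSMB10 (-0.0325) and PSMD4 (-0.14), which had not been called. The genes it added as lower were PSMA1, PSMB2, PSMB7, PSMD9, PSME1 and PSME3. Values near 0 also changed sign when 1 library was left out: PSMB1 (-0.0121 to 0.14), PSMB5 (-0.23 to 0.13), PSMC3 (-0.22 to 0.20) and PSME4 (-0.27 to 0.051). Over all genes the left-out libraries gave 1637 to 2756 expression calls, 2 to 19 shifts, 4 to 36 isoforms (0 to 1 in proteasome genes) and 0 clusters. The highest 3’ end counts came without R749H replicate 1 (19 shifts, 35 isoforms) or replicate 3 (14 and 36), and the lowest shift count without wild-type replicate 1.

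Counts for 3’ ends moved with the test: shifted genes numbered 38 with DESeq2 and 24 with the gene divided at its midpoint, against 7. Isoforms numbered 26 with edgeR, 13 with libraries thinned and 16 with a minimum of 30 reads, against 5, and DESeq2 called 1 cluster, in a proteasome gene (1 of 10), against 0. The cause was not tested. Over proteasome genes, the other alternatives gave 0 shifts, isoforms and clusters, apart from the 1 isoform without R749H replicate 3.

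With the replicate number as a block (replicates 1 to 4), 2226 genes (24.3% of those tested), 4 shifts, 15 isoforms and 0 clusters were called. Of the 38 proteasome genes 6 were called, and 5 of these were shared: PSME2 was lost and PSMA7 gained. Correlations of deviations between same-numbered libraries were -0.08, 0.05, 0.01 and -0.06, so the block shares only a number. Leaving out 3’ ends listed under more than 1 gene was not run, since 0 positions were so listed. Depth limits PSMC6, PSME2, PSMD11 and PSMD6, with 2 to 61 reads a library, and the 4 untested genes.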
